A study of Homo sapiens and Mus musculus with 18 samples.

Results

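The genes described here are the members of HOX paralog groups 7, 8 and 9, the central part of the HOX clusters: HOXA7, HOXB7, HOXB8, HOXC8, HOXD8, HOXA9, HOXB9, HOXC9 and HOXD9 in human, and the mouse genes of the same names. They were taken from the count tables by gene symbol, after each identifier had been matched to the GENCODE annotation, a rule that uses no measured value. Each of the 9 was found once in either species, which makes 9 of 44910 genes in human, 9 of 29720 in mouse, and 9 of the 39 HOX genes listed in each.

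RNA-seq was carried out on 18 libraries in 9 groups of 2, to follow transcripts over the stages that lead from embryonic stem cells (ESCs) to gastruloids, which are aggregates of ESCs that elongate and pattern like the early embryo. The human groups were naive H9 ESCs (chemically reset, and grown on mouse embryonic fibroblast feeders that were removed by passaging before collection), primed H9 ESCs, primed ESCs of the germ layer reporter line RUES2-GLR, and RA-gastruloids made from RUES2-GLR, collected early at 24 h and late at 120 h. The primed RUES2-GLR ESCs had none of the treatments that follow. Before aggregation, cells for RA-gastruloids received the WNT agonist CHIR99021, then CHIR99021 with retinoic acid. At aggregation they received CHIR99021 again. Matrigel with more retinoic acid was added after the early collection, so only the late group had it. In mouse, where every group came from E14Tg2a cells, the groups were naive ESCs in a medium with 2 inhibitors and LIF, epiblast-like cells (EpiLCs) made with Activin A and bFGF, and early and late gastruloids that were seeded from the naive ESCs and had a pulse of CHIR99021 and no retinoic acid. None of the groups carried a knockout or knockdown. Both replicates of any stage came from the same batch. The p-values measure the spread between the 2 biological duplicates of each group, pooled over all groups of a fit. Each group came from 1 line, so the spread between lines is not measured.

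HOX genes encode homeodomain transcription factors and lie in 4 clusters, HOXA to HOXD, in which genes of the same number are paralogs. In the embryo they are switched on one after another, from the low-numbered end of a cluster to the high-numbered end, and the boundaries they set along the body follow the same order. Groups 7, 8 and 9 are the trunk genes, best known for the thoracic skeleton and the thoracic spinal cord, and retinoic acid, WNT and CDX factors are established inputs to HOX transcription.

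The levels of HOXB9, HOXC9 and HOXD9, paralogs of group 9, lay far apart in early RA-gastruloids, as given below, although their homeoboxes, the coding DNA of the homeodomain, are close in sequence. These 3 homeoboxes are shown because near-identical sequence decides whether a read can be assigned to 1 paralog. They were read from the GENCODE transcripts on GRCh38, 5′ to 3′ in the direction of transcription, and each lies within the last of 2 coding exons of its gene: HOXB9 at chr17:48622921-48623100 on the minus strand, HOXC9 at chr12:54002465-54002644 on the plus strand and HOXD9 at chr2:176123969-176124148 on the plus strand. Capitals mark the 43 of 180 positions at which the 3 are not all the same.
HOXB9: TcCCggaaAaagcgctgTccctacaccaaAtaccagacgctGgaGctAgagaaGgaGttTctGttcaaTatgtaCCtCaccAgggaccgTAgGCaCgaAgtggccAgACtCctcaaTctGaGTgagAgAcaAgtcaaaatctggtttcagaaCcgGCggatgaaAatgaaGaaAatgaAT
HOXC9: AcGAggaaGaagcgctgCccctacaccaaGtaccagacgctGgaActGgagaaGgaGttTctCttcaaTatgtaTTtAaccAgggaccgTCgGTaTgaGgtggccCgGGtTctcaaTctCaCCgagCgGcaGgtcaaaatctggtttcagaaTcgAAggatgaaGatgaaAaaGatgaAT
HOXD9: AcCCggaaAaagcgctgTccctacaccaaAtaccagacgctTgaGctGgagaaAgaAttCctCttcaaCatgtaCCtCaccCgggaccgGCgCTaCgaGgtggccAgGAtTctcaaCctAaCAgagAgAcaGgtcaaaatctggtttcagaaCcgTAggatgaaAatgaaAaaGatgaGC
Between pairs of these 3, 148 to 152 of the 180 bases were identical (82.2% to 84.4%). HOXB9 and its mouse counterpart shared 177 of 180 bases (98.3%). Over the 36 pairs of human members, the longest exact run common to the main transcripts of 2 genes was 40 bases, between HOXB9 and HOXD9, and the median was 17 bases. In mouse the longest was 50 bases, between Hoxb9 and Hoxc9. The libraries were sequenced with paired reads of more than 1 length, and which library had which is not given in the sources used here.

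Exons of other genes touched some members. In the human table HOXA7 (chr7:27153716-27157936, minus strand) shared 1507 of its 2411 exonic bases (62.5%) with HOXA-AS3, which lies on the opposite strand. HOXD8 shared 24.4% of its exonic bases with HOXD-AS2, HOXA9 shared 13.9% with HOXA10-AS, and HOXC9 shared 9.78% with HOXC-AS2 and HOXC6. The other 5 human members shared none, and in mouse only Hoxa7 did (20.4%, with Hoxaas3). The library kit does not mark strand and counting used no strand, so a read in such a stretch could not be placed and was left uncounted, which lowers the values of HOXA7 most.

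Library totals ran from 3681739 counts in replicate 2 of the primed RUES2-GLR ESCs to 38771193 in replicate 2 of the primed H9 ESCs, and from 6487157 to 20052505 in mouse. Levels are given as CPM (counts-per-million), scaled by the trimmed mean of M values (TMM), where 1 gene is followed across samples. Where genes are set side by side, levels are TPM (transcripts-per-million), which are also divided by gene length. A group in which a gene had no count has an upper limit of 3 counts over its 2 libraries, which is 0.0533 CPM for primed H9 and 0.195 CPM for primed RUES2-GLR. These limits, and the counting intervals below, cover counting error only. The 6 naive pluripotency genes summed to 5380 and 5821 CPM in the naive H9 libraries against 19.2 and 19.4 CPM in primed H9, and the mouse naive list summed to 3367 and 3460 CPM against 95.1 and 94.2 CPM in EpiLCs and 1481 and 1458 CPM in early gastruloids.

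In human RA-gastruloids HOXB9 and HOXB8 were the highest of the 9 members at 24 h and at 120 h. HOXB9 (chr17:48621156-48626358, minus strand) had no read in any of the 4 primed libraries, 7106 and 6903 reads in early RA-gastruloids, and 23702 and 10346 reads in late RA-gastruloids. This is 683 and 697 CPM early and 1149 and 1054 CPM late, against 2.20 and 1.26 CPM in naive H9. All 4 gastruloid libraries stood above all others, and the early and late values did not overlap. HOXB8, known for its part in microglia and grooming behaviour in mice, measured 82.5 and 85.2 CPM early and 137 and 127 CPM late, with 0.314 and 0.402 CPM in naive H9 and 0 in the primed lines. HOXB7 measured 9.22 and 9.18 CPM early and 18.9 and 20.4 CPM late. In naive H9 it measured 5.44 and 6.83 CPM, and its primed libraries were at 0. All 3 HOXB members thus had the same order of groups, primed lowest, then naive H9, then early and late gastruloids.

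**Figure D1:**
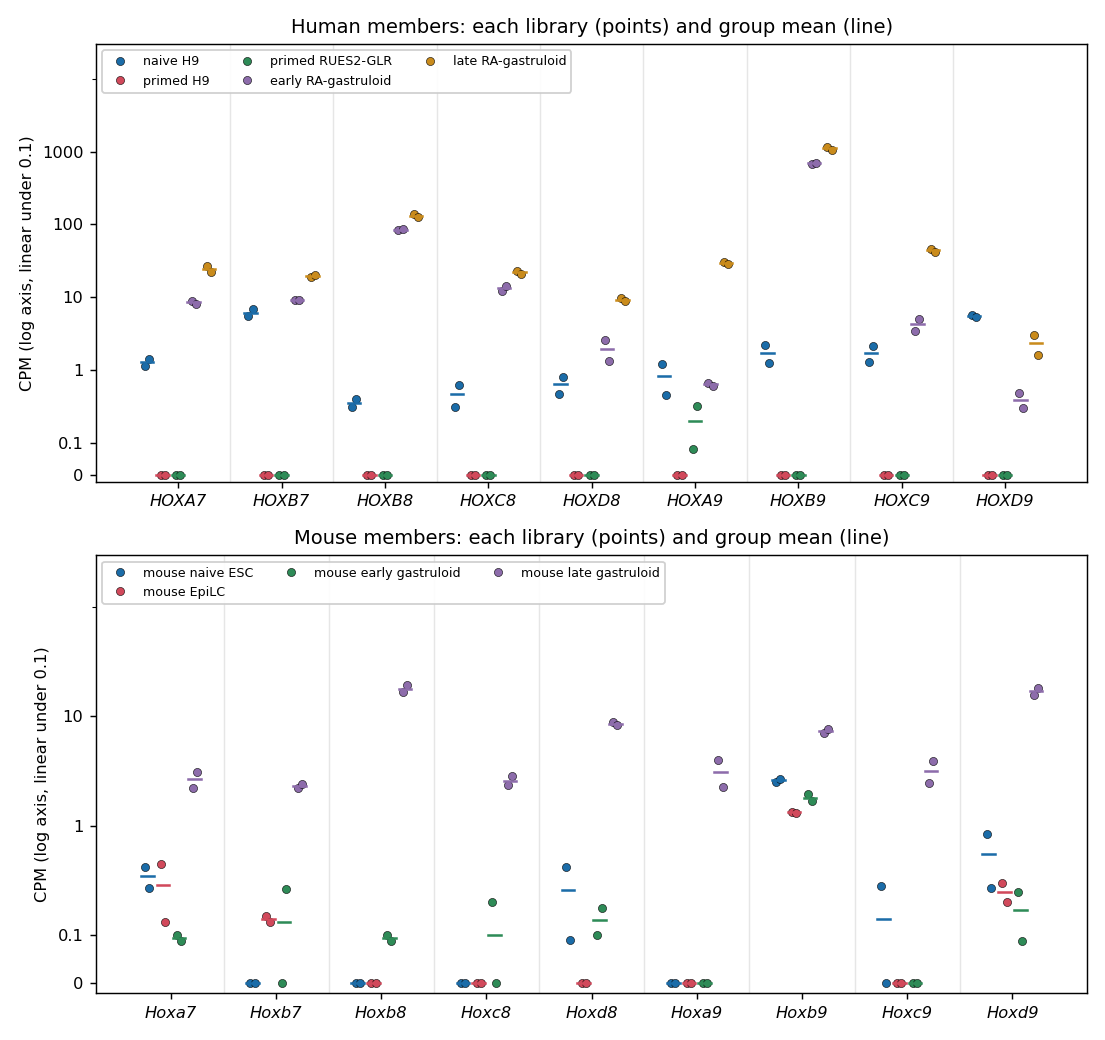
CPM of each of the 9 members (x axis) in every human library (upper panel) and mouse library (lower panel), on an axis that is logarithmic above 0.1 and linear below; points are libraries, lines are means of 2. HOXB9 reaches 1149 CPM in late RA-gastruloids, while the primed human libraries sit at 0 apart from 1 read of HOXA9 in each RUES2-GLR library.

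The HOXA, HOXC and HOXD members were also present at 24 h, HOXA9 and HOXD9 on a few reads only. HOXC8, known for its part in brachial motor neurons, measured 12.2 and 14.1 CPM early and 22.9 and 21.1 CPM late. HOXC9, which organises thoracic motor neurons, measured 3.46 and 5.05 CPM early and 46.1 and 42.0 CPM late. The late HOXC9 values lay well apart from the early ones, and those of HOXC8 were closer together without overlap. HOXA7 measured 8.94 and 8.07 CPM early and 26.5 and 22.2 CPM late. HOXA9, a trunk gene also known as an oncogene in leukaemia, had 7 and 6 reads early (0.673 and 0.606 CPM) and 627 and 283 reads late (30.4 and 28.8 CPM). HOXA9 was also the only member with reads in a primed line, 1 in each RUES2-GLR library. HOXD8 measured 2.59 and 1.31 CPM early and 9.60 and 8.97 CPM late. HOXD9, known also from limb development, had 5 and 3 reads early (0.480 and 0.303 CPM) and 63 and 16 reads late (3.05 and 1.63 CPM). HOXD9 is the 1 member whose late gastruloid values were below those of naive H9, at 5.64 and 5.34 CPM.

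Promoter sequences of HOXA7, HOXA9 and HOXD8 are shown because RefSeq entries matched these 3 of the 9 members. All 3 are among the 6 members called higher between the early and late stages, as given below. The windows run from 250 bases before to 50 after the start on GRCh38.p14: chr7:27156626-27156925 for HOXA7 and chr7:27165488-27165787 for HOXA9, both on the minus strand, and chr2:176129455-176129754 for HOXD8 on the plus strand. Each is written 5′ to 3′ along its gene, and capitals mark matches to the letters searched.
HOXA7: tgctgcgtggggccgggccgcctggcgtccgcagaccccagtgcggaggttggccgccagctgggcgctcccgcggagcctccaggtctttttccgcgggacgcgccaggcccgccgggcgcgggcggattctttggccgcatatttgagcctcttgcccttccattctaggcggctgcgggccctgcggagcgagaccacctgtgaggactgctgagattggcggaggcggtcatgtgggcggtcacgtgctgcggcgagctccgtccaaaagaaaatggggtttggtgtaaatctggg
HOXA9: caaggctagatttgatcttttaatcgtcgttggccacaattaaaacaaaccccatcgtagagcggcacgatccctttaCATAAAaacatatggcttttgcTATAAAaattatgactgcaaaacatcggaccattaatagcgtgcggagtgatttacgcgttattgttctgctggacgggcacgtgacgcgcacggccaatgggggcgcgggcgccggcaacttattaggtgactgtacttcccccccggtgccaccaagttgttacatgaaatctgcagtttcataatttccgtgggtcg
HOXD8: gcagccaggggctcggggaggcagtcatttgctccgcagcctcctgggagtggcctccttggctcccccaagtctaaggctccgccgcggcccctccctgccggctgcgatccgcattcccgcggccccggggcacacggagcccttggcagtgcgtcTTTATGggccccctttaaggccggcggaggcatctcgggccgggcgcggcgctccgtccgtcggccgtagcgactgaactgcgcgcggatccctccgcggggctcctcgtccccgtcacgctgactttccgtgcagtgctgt
The searches covered both strands and 4 patterns: CATAAA, which is read as TTTATG on the other strand and is of the kind CDX proteins bind; the TATA box letters TATAAA; the letters TGATTNAT, of the kind PBX binds with HOX proteins; and AGGTCA, the core letters of retinoic acid receptor sites. The matches did not overlap each other. HOXA9 held CATAAA from base -172 and TATAAA from base -150, and HOXD8 held TTTATG from base -92, counted from the start. HOXA7 held none of the 4, and neither TGATTNAT nor AGGTCA was found in the other two. Of all 35116 promoters of this length, 10.6% held CATAAA, 11.5% TATAAA, 2.82% TGATTNAT and 13.8% AGGTCA. The HOXA9 window had 48% G and C, against 68% for HOXA7, 71.7% for HOXD8 and a median of 58.7% over all promoters. The members not shown are HOXB7, HOXB8, HOXC8, HOXB9, HOXC9 and HOXD9.

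The first human comparison asked what had changed by 24 h of RA-gastruloid formation. It also spans the change of medium and the treatments before aggregation. Between primed RUES2-GLR ESCs and RA-gastruloids of 24 h all 9 members, each of which passed the filter on low counts, were called higher (edgeR quasi-likelihood test, adjusted p under 0.05 and a fold above 2), where 12% of the 18300 genes tested were called higher. Because 8 members had no read in RUES2-GLR ESCs, their change has only a lower bound. They passed the filter through other groups, so they could only be called higher or not at all. The share over all genes is therefore not a like comparison. HOXB9 was at least 3529-fold higher (adjusted p = 1.16e-24), HOXB8 at least 429-fold (adjusted p = 8.04e-21), and HOXC8 at least 67.4-fold (adjusted p = 2.54e-13). HOXB7 was at least 47.1-fold, HOXA7 at least 43.5-fold and HOXC9 at least 21.8-fold higher. The bounds of the remaining members were low, since their reads were few. HOXD8 was at least 9.995-fold higher and HOXD9 at least 2.00-fold, the latter on 8 reads. HOXA9 went from 2 reads to 13, a ratio of 4.91 with a 95% counting interval of 1.11 to 44.8 (adjusted p = 0.0472). The median log2 change of the members was 5.44 with the 8 at their bounds, against 0.0841 over all genes tested. The calls of HOXA9 and HOXD9 rested on single libraries. Without replicate 1 of the RUES2-GLR ESCs their adjusted p were 0.658 and 0.297, and without replicate 1 of the early RA-gastruloids 0.0959 and 0.0572. HOXA9 was also lost without replicate 2 of the early RA-gastruloids (0.0617) and with DESeq2 (0.0867), in a range over its alternatives that reached 0.658.

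At 24 h the members of 1 cluster held most of the summed level, chiefly through HOXB9. In TPM, HOXB9 stood at 1041 ± 17.7 (SD, n = 2), HOXB8 at 136 ± 3.41, HOXB7 at 23.6 ± 0.00648, HOXC8 at 21.3 ± 2.26, HOXA7 at 13.8 ± 0.948, HOXC9 at 9.96 ± 2.66, HOXD8 at 2.90 ± 1.34, HOXA9 at 0.822 ± 0.0587 and HOXD9 at 0.816 ± 0.260. Of the 8 pairs of neighbours in this order, 7 did not overlap between replicates, and HOXA9 and HOXD9 did. HOXB9 was 7.69 and 7.60 times HOXB8 in the 2 libraries, and HOXB8 was 5.66 and 5.86 times HOXB7. In the other clusters the direction was the opposite, the group 9 gene being below its neighbour of group 7 or 8: HOXC9 was 0.411 and 0.518 times HOXC8, HOXD9 was 0.260 and 0.324 times HOXD8, and HOXA9 was 0.0598 and 0.0596 times HOXA7. The HOXB members held 96.1% and 96.0% of the summed TPM of the 9 members. HOXA7 would stand at 36.7 TPM if divided by the 904 bases that no other gene covers, above HOXB7.

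**Figure D2:**
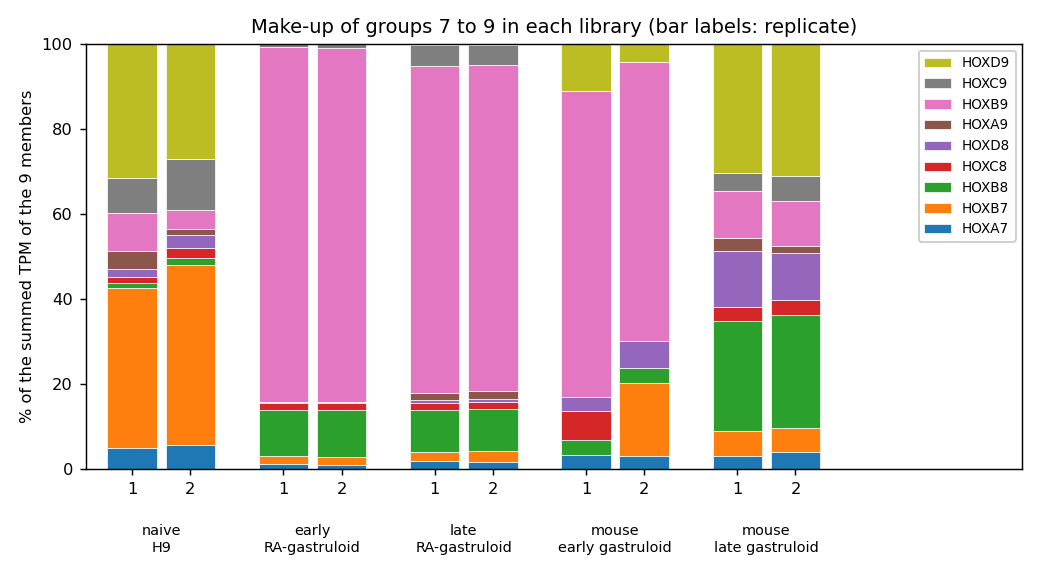
Share of the summed TPM of the 9 members held by each gene (y axis, percent) in single libraries of 5 groups (x axis, 2 replicates each). HOXB9 fills 83.4% and 77.0% of replicate 1 of the early and late RA-gastruloids, while Hoxd9, Hoxb8 and Hoxd8 lead in mouse late gastruloids; the mouse early bars rest on 81 reads in all.

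The step from 24 h to 120 h changed the members unevenly, HOXA9 and HOXC9 most. From early to late RA-gastruloids 6 of the 9 were called higher, where 11.8% of all genes tested were, and none was called lower. HOXA9 rose 45.8-fold (log2 change 5.52, SE 0.295, adjusted p = 4.83e-16) and HOXC9 rose 10.4-fold (3.38, SE 0.20, adjusted p = 1.05e-14). HOXD9 rose 6.29-fold (2.65, SE 0.50, adjusted p = 4.76e-05), HOXD8 4.73-fold (2.24, SE 0.29, adjusted p = 1.51e-07), HOXA7 2.88-fold (1.53, SE 0.18, adjusted p = 2.67e-08) and HOXB7 2.12-fold (1.09, SE 0.18, adjusted p = 8.01e-06). The 3 members that changed least were among the 4 highest at 24 h. HOXB8 differed 1.58-fold (adjusted p = 1.48e-05), HOXB9 1.60-fold (adjusted p = 4.76e-06) and HOXC8 1.68-fold (adjusted p = 0.000594), each past the adjusted p but under the fold of 2. By adjusted p alone all 9 were higher, where 26.3% of genes tested were. The median log2 change was 1.53 over the members and 0 over all genes. Against primed RUES2-GLR ESCs, late RA-gastruloids had all 9 members called higher (17.3% of all genes tested). For the members with no read in the ESCs no other direction was open. The bounds ran from at least 12.0-fold for HOXD9 to at least 5638-fold for HOXB9. HOXA9 had a ratio of 229.5 to its 2 reads in the ESCs (95% counting interval 63.3 to 1898).

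By 120 h the order had changed below HOXB9 and HOXB8. HOXB9 was at 1708 ± 66.2 TPM, HOXB8 at 221 ± 6.89, HOXC9 at 106 ± 4.67, HOXB7 at 51.8 ± 3.99, HOXA7 at 40.5 ± 4.11, HOXA9 at 39.2 ± 0.592, HOXC8 at 36.5 ± 1.29, HOXD8 at 14.2 ± 0.369 and HOXD9 at 4.999 ± 2.05. Only HOXA7 and HOXA9 overlapped among the 8 neighbouring pairs. Divided by its 904 bases of its own, HOXA7 would be at 108 TPM, close to HOXC9. Its place in the order and its overlap with HOXA9 therefore depend on the length used. HOXC9 was now 2.92 and 2.89 times HOXC8, the reverse of 24 h. By full gene lengths HOXA9 was 0.913 and 1.03 times HOXA7. HOXB9 kept its ratio to HOXB8, at 7.78 and 7.70, and HOXD9 stayed below HOXD8 (0.447 and 0.256). The HOXB members still held 89.0% and 89.3% of the summed TPM.

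**Figure D3:**
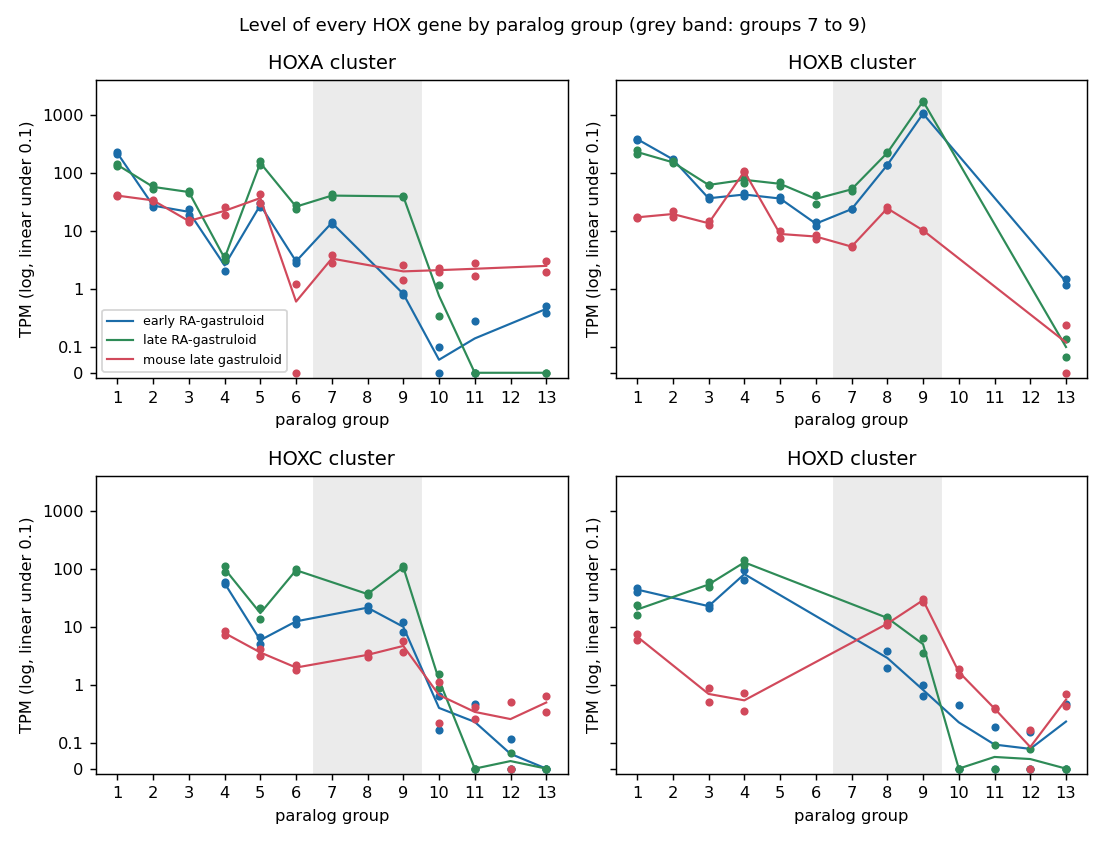
TPM of every HOX gene by paralog group (x axis) in each cluster, on an axis logarithmic above 0.1 and linear below; points are libraries, lines join means of 2, and the grey band marks groups 7, 8 and 9. In RA-gastruloids the level falls after group 9 in clusters A, C and D. At 120 h it goes from 39.2 TPM for HOXA9 to 0.762 TPM for HOXA10. In mouse late gastruloids Hoxa9 and Hoxa10 lie at 2.00 and 2.10 TPM, on 49 and 29 pooled reads. Hoxa9 was divided by 5580 exonic bases, the most of the mouse members, which lowers its TPM.

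Beside the other HOX genes, groups 7 to 9 had the highest summed level in RA-gastruloids, an order that rested on HOXB9, and groups 10 to 13 were close to 0. Their summed level was 1250.0 ± 23.5 TPM at 24 h, or 51.7% and 50.3% of all HOX TPM, against 919.6 ± 36.8 TPM for groups 1 to 3 and 279 ± 37.1 TPM for groups 4 to 6. At 120 h it was 2222 ± 82.2 TPM (59.8% and 61.4%), against 754 ± 29.9 and 691 ± 92.6 TPM. Without HOXB9 the other 8 members summed to 209 ± 5.72 TPM at 24 h and 514 ± 16.0 TPM at 120 h, below groups 1 to 3 and 4 to 6 at both stages. Groups 10 to 13 stayed at 3.28 ± 1.72 and 2.18 ± 1.17 TPM. At 120 h HOXA10 had 0.762 ± 0.602 TPM, HOXC10 1.21 ± 0.466 TPM and HOXD10 no read, each below the group 9 gene of its cluster in both libraries. In mouse late gastruloids groups 7 to 9 summed to 93.0 ± 6.01 TPM (19.8% and 22.0% of all HOX TPM), below groups 4 to 6 (195 ± 11.9 TPM) and groups 1 to 3 (146 ± 0.245 TPM), and groups 10 to 13 summed to 11.4 ± 0.927 TPM.

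In mouse the members were nearly silent until the late stage, with Hoxb9 as the exception. Hoxb9 had 2.51 and 2.69 CPM in naive ESCs, 1.33 and 1.32 in EpiLCs, 1.93 and 1.67 in early gastruloids and 7.004 and 7.60 in late gastruloids. Its late values lay above its 6 earlier ones. Hoxa7 and Hoxd9 were also read in every library, at no more than 6 reads before the late stage. The other 8 members together had 21 reads in naive ESCs, 13 in EpiLCs and 23 in early gastruloids, over 2 libraries each, and 871 in late gastruloids. Hoxb8 had no read in ESCs or EpiLCs, 2 and 1 reads early, and 142 and 129 reads late (16.6 and 19.2 CPM). Hoxd9 had 6, 3, 2 and 3 reads in the ESC and EpiLC libraries, 5 and 1 early, and 136 and 122 late (15.9 and 18.2 CPM). Hoxd8 had at most 3 reads in each of the 6 earlier libraries and 76 and 56 late (8.87 and 8.34 CPM). These 3 genes and Hoxb9 led the late stage. Hoxa9 had no read before the late stage, where it had 34 and 15 (3.97 and 2.23 CPM), and Hoxc9 had 2 reads in 1 naive library and then 21 and 26 late (2.45 and 3.87 CPM). Hoxa7 (2.22 and 3.13 CPM late), Hoxb7 (2.22 and 2.38) and Hoxc8 (2.34 and 2.83) had at most 4 reads in any earlier library. For all 9 members, the late libraries lay above the 6 earlier ones.

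From mouse naive ESCs to EpiLCs, Hoxd8 alone was called, and lower (12.1% of 15003 genes tested were called lower). It went from 3 and 1 reads to 0 and 0, at least 1.86-fold (adjusted p = 0.0382), and the call was lost without any of 3 of the 4 libraries (adjusted p 0.0772 to 0.234). Hoxb9 had a log2 change of -0.98 (SE 0.37, adjusted p = 0.0171), just under the fold of 2. From EpiLCs to early gastruloids edgeR called 0 members in either direction, where 11.7% of genes were called higher and 9.24% lower. Unadjusted p under 0.05 was reached by 0 members and DESeq2 also called 0. Hoxb9 was at log2 0.47 (SE 0.36, adjusted p = 0.262). Each of the others had at most 6 reads pooled at the early stage. Hoxa9 and Hoxc9 had no read at either stage, so no call was possible for them. With so few reads, the lack of calls does not show that the members other than Hoxb9 were unchanged.

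From early to late mouse gastruloids all 9 members were called higher, where 20.1% of genes tested were. The members other than Hoxb9 had few reads in every earlier group and passed the filter on low counts through the late libraries. They could therefore only be called higher or not at all, and the share over all genes is not a like comparison for them. Hoxd9 rose 84.5-fold (log2 6.40, SE 0.35, adjusted p = 6.14e-24), Hoxd8 62.5-fold (5.97, SE 0.46, adjusted p = 1.87e-17), Hoxc8 18.8-fold (4.23, SE 0.65, adjusted p = 6.35e-08) and Hoxb9 3.96-fold (1.99, SE 0.27, adjusted p = 2.46e-09). Hoxa9 was at least 32.7-fold and Hoxc9 at least 33.3-fold higher. Both had no early read, so their change has only a lower bound. The other three had 3 early reads each, so only a ratio with its counting interval can be given. That ratio was 187 for Hoxb8 (95% interval 63.3 to 912), 27.6 for Hoxa7 (8.79 to 139) and 24.1 for Hoxb7 (7.61 to 123). The median log2 change was 5.03 with the genes at 0 taken at their bounds, against -0.0302 over all genes. DESeq2 called 7 of the 9, with adjusted p of 0.126 for Hoxa9 and 0.114 for Hoxc9.

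The order of levels in mouse late gastruloids was led by a HOXD gene. Hoxd9 stood at 28.6 ± 2.25 TPM, Hoxb8 at 24.4 ± 2.13, Hoxd8 at 11.3 ± 0.681, Hoxb9 at 10.2 ± 0.412, Hoxb7 at 5.35 ± 0.181, Hoxc9 at 4.66 ± 1.41, Hoxa7 at 3.33 ± 0.747, Hoxc8 at 3.27 ± 0.389 and Hoxa9 at 2.00 ± 0.823. The neighbours from Hoxb7 to Hoxc8 overlapped, and the other 5 of the 8 pairs did not. The last place of Hoxa9 depends on its length of 5580 exonic bases, the most of the mouse members. It had 49 pooled reads, against 40 for Hoxa7, 39 for Hoxc8 and 35 for Hoxb7. The 2 HOXD members held 43.7% and 42.1% of the summed TPM and the 3 HOXB members 42.8% and 43.0%. In late RA-gastruloids the 2 HOXD members held 0.915% and 0.807%. Hoxb9 was 0.433 and 0.405 times Hoxb8, whereas HOXB9 was 7.78 and 7.70 times HOXB8, and Hoxd9 was 2.30 and 2.80 times Hoxd8, whereas HOXD9 was 0.447 and 0.256 times HOXD8. These are levels within 1 library each, and species, line, medium and sampling time differ together and cannot be told apart.

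**Figure D4:**
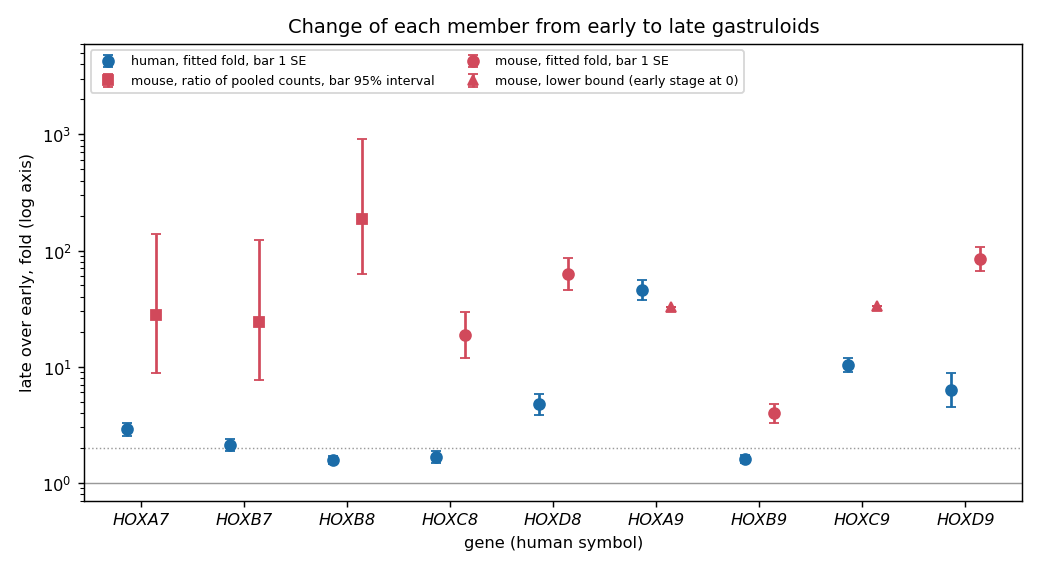
Late over early level of each member (y axis, fold on a log axis) in human (blue) and mouse (red); circles are fitted folds with bars of 1 SE, squares are ratios of pooled counts with 95% counting intervals, and triangles are lower bounds. Mouse folds exceed the human ones for every gene but HOXA9, where 45.8-fold in human stands beside at least 32.7-fold in mouse.

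The difference between the species in the change from early to late was tested in 1 edgeR fit of all 18 libraries, over 15370 genes matched by symbol of which 14006 passed the filter. The change was smaller in human than in mouse for 8 of the 9 members, where 18.7% of genes tested were called in that direction. On the log2 scale, human minus mouse, the difference was -6.60 (SE 0.38, adjusted p = 6.4e-16) for HOXB8, -3.60 (SE 0.68, adjusted p = 2.87e-05) for HOXD8 and -3.61 (SE 0.93, adjusted p = 0.00116) for HOXD9. It was -3.35 (SE 0.65) for HOXC8, -3.22 (SE 0.72) for HOXB7 and -2.98 (SE 0.67) for HOXA7, with adjusted p of 4.77e-05, 0.000274 and 0.000262. HOXB9 had the smallest called difference, -1.15 (SE 0.24, adjusted p = 9.03e-05). For HOXA9 and HOXC9 the mouse early libraries are at 0, so their fitted differences depend on the prior count. HOXC9 was called (-4.84, SE 1.45, adjusted p = 0.00487) and lost without replicate 1 of the mouse early gastruloids (adjusted p = 0.071), and HOXA9 was not called (-2.75, SE 1.64, adjusted p = 0.152). The human members had started from a higher level at the early stage, as given above.

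Naive H9 ESCs held low counts of every member, and primed H9 ESCs none. Besides the values given above, the 2 naive libraries had 1.31 and 2.12 CPM of HOXC9, 1.202 and 0.459 CPM of HOXA9, and 1.15 and 1.43 CPM of HOXA7. HOXD8 had 0.470 and 0.803 CPM and HOXC8 0.314 and 0.631 CPM. The naive libraries therefore lay above the primed ones for each member. From naive to primed H9 all 9 were called lower, where 22.3% of genes tested were. With no read in primed H9, the members could only be called lower or not at all. HOXB7 was at least 115-fold lower in primed cells (adjusted p = 1.29e-15) and HOXD9 at least 103-fold (adjusted p = 1.09e-13), while HOXB8, with 6 and 7 reads in naive cells, was at least 6.71-fold lower (adjusted p = 2.36e-05). In a fit of the 4 H9 libraries alone 5 members passed the filter, and all 5 were called. In TPM, naive cells were led by HOXB7 (12.4 ± 1.81) and HOXD9 (9.01 ± 0.489), then HOXC9 (3.15 ± 1.02), HOXB9 (2.06 ± 0.813) and HOXA7 (1.64 ± 0.232), and HOXB8 was the lowest (0.456 ± 0.0729). Of the 8 neighbouring pairs 3 did not overlap, those of HOXB7 with HOXD9, HOXD9 with HOXC9, and HOXA7 with HOXA9. In the gastruloids HOXB7 and HOXD9 were below HOXB9 and HOXB8. The sum of the fibroblast markers moved with this comparison. The 7 genes summed to 694 and 676 CPM in naive H9 and to 271 and 282 CPM in primed H9. All 7 were above 3 pooled reads in naive and 4 of 7 in primed cells. COL3A1 (181 and 172 CPM against 0.0699 and 0.0477) and DCN (8.05 and 6.20 CPM against 0) were far higher in naive cells. COL1A2 overlapped between them (131 and 111 CPM against 130 and 137). The list is not particular to naive cells. It summed to 562 and 628 CPM in primed RUES2-GLR ESCs and to 1059 and 992 CPM in early RA-gastruloids. The part of feeder cells in the naive HOX values was not tested. Between the primed lines, 1 member was called, HOXA9, higher in RUES2-GLR (17.1% of genes tested were), on the 2 reads already given and with an adjusted p of 0.0426. Both groups were at or under 3 reads, so no fold is given, and leaving out any 1 of the 4 libraries ended the call.

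A list of 30 genes that act on HOX transcription or work with HOX proteins was followed through the same steps. It holds CDX factors, WNT, FGF and retinoic acid pathway genes, MEIS, PBX and PKNOX cofactors, and Polycomb and Trithorax genes. Between primed RUES2-GLR ESCs and RA-gastruloids of 24 h 16 of the 30 were called higher and 2 lower, where 12% of genes tested were called higher and 17.6% lower, and 12 were not called. CDX2 and CDX1, which have no read in RUES2-GLR ESCs, were at least 1318-fold and at least 1261-fold higher, and TBXT, the marker of primitive streak and axial progenitors, went from 1 read to 2565, a ratio of 1938 (95% counting interval 348 to 76580). The genes called lower were CYP26A1, which degrades retinoic acid (19.6-fold), and the cofactor PBX3 (2.39-fold). From early to late RA-gastruloids 8 were called higher, 8 lower and 14 not, where 11.8% of genes tested were called higher and 13.2% lower. The cofactor MEIS1 rose 21.2-fold and the retinoic acid receptor RARB 10.9-fold. TBXT fell 94.9-fold and FGF8, a signal of the tail bud, fell 28.8-fold. CDX4 fell from 28 reads to 2, a ratio of 20.98 (95% counting interval 5.29 to 182).

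In mouse 29 of the 30 were tested, Wnt3a having failed the filter. From EpiLCs to early gastruloids 10 were called higher and 4 lower (11.7% and 9.24% of genes tested), led by T (159-fold), Cdx1 (52.5-fold) and Cdx2 (12.6-fold) and by Pknox2 (2.82-fold lower) and Rarg (2.39-fold lower). The naive ESCs, from which the gastruloids were seeded, had 34.9 and 36.8 CPM of Cdx1 and 7.82 and 7.72 CPM of Cdx2, above the early gastruloids (16.9 and 17.9 CPM, 4.59 and 5.01 CPM), whereas T had 2.65 and 3.32 CPM in naive ESCs and 213 and 212.5 CPM in early gastruloids. No HOX member was called at this step, where the members other than Hoxb9 had few reads. From early to late gastruloids 15 were called higher and 7 lower, where 20.1% of genes tested were called higher and 19.1% lower. Rarb was at least 184-fold higher, Meis1 rose 296-fold and Cyp26a1 143-fold. Cdx1 fell 26.0-fold, T 16.6-fold and Cdx4 from 30 reads to 1, a ratio of 14.5 (2.41 to 591.5).

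Cell type markers moved over the same steps, and in bulk libraries fewer cells of a type and less RNA per cell cannot be told apart. In RA-gastruloids the 4 axial progenitor markers summed to 598.2 and 598.4 CPM early and to 127 and 102 CPM late, and the 5 neural tube markers to 102 and 105 CPM early and 766 and 712 CPM late. The 6 somite markers summed to 385 and 415 CPM early and 421 and 373 CPM late, but single markers moved in opposite directions. TBX6 went from 357 and 384.5 CPM to 1.70 and 0.612 CPM, MEOX1 from 0.192 and 0.101 CPM to 92.7 and 72.0 CPM, and PAX3 from 18.2 and 21.8 CPM to 259 and 249 CPM. In mouse gastruloids the axial list went from 240.5 and 239 CPM to 25.6 and 26.4, the cardiac list from 6.67 and 6.07 to 332 and 336, and the intermediate mesoderm list from 1.78 and 1.94 to 67.2 and 70.3. The fall of the axial sum was chiefly that of T, from 213 and 212.5 CPM to 12.0 and 13.7 CPM. Nkx1-2 and Wnt3a also fell, Wnt3a on few reads, whereas Cdx2 rose from 4.59 and 5.01 CPM to 10.97 and 11.47 CPM. The fibroblast list went from 2.52 and 2.99 CPM to 500.8 and 544. Cardiac markers were at 0.194 and 0.306 CPM in late RA-gastruloids, with 1 of 5 above 3 pooled reads. The part of cell composition in the HOX changes was not tested.

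The genes outside the HOX family whose profile was most like the mean of the 9 members were sought over all tested genes, as a description. The measure was Pearson's r of log2 CPM with the mean of the 9, over samples that share their stages. Over the 10 human libraries the 5 most alike of 18264 were FZD10-AS1 (0.991), ARHGAP24 (0.991), MEIS2 (0.991), HAGLROS (0.985) and KIFAP3 (0.982). HAGLROS is an RNA of the HOXD region. MEIS2, a HOX cofactor, had 11.6 and 10.9 CPM in naive H9, at most 0.737 CPM in any primed library, 85.3 and 81.5 CPM early and 267 and 266 CPM late. Over the 8 mouse libraries the 5 most alike of 14973 were Meox2 (0.998), Spink1 (0.998), Foxc2 (0.998), Sox17 (0.998) and Tgfbr1 (0.997), and what they share with the members is chiefly a high level in the 2 late libraries. Meox2 had 5.37 and 6.85 CPM late and at most 0.140 CPM before.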

How the data were processed

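RNA was sequenced from 18 libraries, 10 human and 8 mouse, in 9 groups of 2. The authors made poly(A) libraries with a kit that does not mark strand, trimmed reads (Trimmomatic 0.39, after bcl2fastq 2.20), used STAR for alignment (GRCh38 for human, GRCm39 for mouse) and deposited raw read counts per gene from featureCounts at default settings, with gene lengths. Reads that matched several places or genes were left out. Aligner versions and the annotation release are not given in the sources used here.

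Of the gene identifiers, 44876 of 44910 (human, GENCODE v44) and 29486 of 29720 (mouse, M39) were matched to symbols. In 1 fit per species, and 1 over both for the species difference, counts were filtered (filterByExpr), TMM-normalized and tested in edgeR 4.0.16 (R 4.3.3) by quasi-likelihood, with 1 coefficient per group and Benjamini-Hochberg adjustment over all genes tested. A gene was called where its adjusted p was under 0.05 and its log2 change exceeded 1 in size. Where a group had no read, the fold was bounded with 3 counts over the group. With 1 to 3 reads, a ratio of pooled counts with an exact 95% interval is given. TPM used the deposited lengths.

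The alternatives were DESeq2 1.42.0, 2 other normalizations, no filter, fewer groups in the fit, adjusted p alone, each library left out and a replicate block. Scripts were tested on simulated data. All members are named. Of the list of HOX inputs and partners, up to 3 called in each direction with the largest change are named, and the 5 genes most like the members in each species. Some items that these rules name are not reported here. Members and lists were chosen with earlier results of these data known.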

Additional observations from a re-analysis of the deposited data

Results flagged for a closer look

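The change from early to late gastruloids differed between the species for 8 members, by a test of the difference itself in edgeR. On the log2 scale, human minus mouse, the difference was -6.60 for HOXB8, -3.61 for HOXD9 and -3.60 for HOXD8. It was -3.35 for HOXC8, -3.22 for HOXB7, -2.98 for HOXA7 and -1.15 for HOXB9. For HOXC9 the fitted difference was -4.84, but the mouse early libraries had no read, so that it depends on the prior count, and its call was lost without replicate 1 of the mouse early gastruloids (adjusted p = 0.071). All 8 changes were positive in both species and smaller in human. The mouse early level was 3 pooled reads for HOXB8, HOXB7 and HOXA7, 4 for HOXC8 and HOXD8, 6 for HOXD9 and 0 for HOXC9, whereas HOXB9 had 58. The part of retinoic acid, of the cell lines and of the sampling times in these differences cannot be told apart.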

How the results depend on the processing

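Under DESeq2 size factors and upper quartile normalization, the count of members called was 8 in place of 9 from RUES2-GLR ESCs to early RA-gastruloids and kept its size in the other 8 comparisons. From primed H9 to primed RUES2-GLR ESCs, where 1 member was called, the count was 0 without a filter on low counts, 0 in a fit of the compared groups alone, and 0 without any 1 library. From naive to primed H9 ESCs it was 5 in a fit of the compared groups alone, where 5 members passed the filter. From mouse naive ESCs to EpiLCs, where 1 was called, DESeq2 and a fit of the compared groups alone gave 0, adjusted p alone gave 2, and leaving out 1 library gave 0 to 1. Leaving out 1 library gave 7 to 9 members from RUES2-GLR ESCs to early RA-gastruloids and 7 to 8 for the species difference, and did not move the other counts. No direction reversed. Among single genes, DESeq2 lost 4 calls, no filter 2 and the left-out libraries 13. For HOXA9 between RUES2-GLR ESCs and RA-gastruloids of 24 h, the adjusted p was 0.0553 with DESeq2 size factors, 0.0635 with upper quartile normalization and 0.106 with no filter. The median change of all genes from primed H9 to RUES2-GLR ESCs was -0.119 (log2) with TMM and 0 with DESeq2 size factors. With the replicate number as a block the counts were 9, 6, 9, 9 and 1 in human, 1, 0 and 9 in mouse and 8 for the species difference, the same as without pairing. Same-numbered samples deviated with correlations of -0.112 to 0.0684 in human and -0.0483 to 0.00806 in mouse, so the numbers are only names. Depth limits the mouse early values, where 8 of the 9 members had 23 reads in all.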

Other observations

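Antisense and intergenic RNAs of the HOX clusters, chosen after their values were seen, were followed in RA-gastruloids, with no test. HOXC-AS2, which overlaps HOXC9, had 0.0961 and 0 CPM early and 28.2 and 22.0 CPM late. HOXC-AS1 had 0.288 and 0.505 CPM early and 3.59 and 2.14 CPM late. HOXB-AS3 had 161 and 161 CPM early and 234 and 186 CPM late, so its late values lay above the early ones. HOXA-AS3, which covers much of HOXA7, had 43.7 and 49.4 CPM early and 42.2 and 34.9 CPM late, so it did not follow the higher values of HOXA7. Without strand in the counts, HOXC-AS2 and HOXA-AS3 cannot be told apart from HOXC9 and HOXA7 in the shared stretches.

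In naive ESCs the highest HOX levels lay outside groups 7 to 9. In naive H9, HOXD13 had 28.3 ± 1.26 TPM, HOXC13 10.9 ± 0.311 TPM and HOXB13 9.14 ± 0.705 TPM. In mouse naive ESCs Hoxc13 had 19.0 ± 3.88 TPM (SD, n = 2). CDX1 and CDX2, which act upstream of the trunk HOX genes, had 609 and 597 reads in naive H9 and 3 each in primed H9, ratios of 312 (95% counting interval 106 to 1519) and 306 (104 to 1489).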
